A study of Rattus norvegicus with 6 samples.

Results

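The miR-34 family was followed in small RNA libraries of PC12 cells, a rat line from a pheochromocytoma of the adrenal medulla. Its members were taken by name, as every row of the deposited count table for miR-34a, miR-34b, miR-34c, miR-449a or miR-449c, which gave 10 rows of 1289 in all and of 584 with known rat miRNA names. There were 3 libraries labelled EC and 3 labelled EN, all from PC12 cells. The labels do not spell out EC or EN and give no dose, time or passage, while the series title concerns Netrin-1 and exosomes of endothelial cells in nerve repair. The labels do not tell whether replicates are separate cultures. Every p-value therefore sets a difference between the groups against the scatter of these libraries only, which may be technical.

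A miRNA gene is transcribed as a hairpin, from which an arm near the 5′ end (5p) and an arm near the 3′ end (3p) are cut. Usually 1 arm is loaded into Argonaute as the guide and the other is degraded. The guide finds its mRNA targets mainly through its seed, bases 2 to 8. The tumour suppressor p53 activates transcription of the miR-34 genes, and their guide arms are known to repress cell cycle and survival mRNAs. MiR-34a has a gene of its own and is abundant in brain. MiR-34b and miR-34c come from 1 shared transcript, and together with the miR-449 cluster they are known from ciliated epithelia, where they act in the making of multiciliated cells.

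All 10 rows matched a mature sequence of RefSeq (rat build GRCr8). In that annotation Mir34c and Mir34b are direct neighbours on the minus strand, beside Btg4 and overlapping the protein-coding gene Hoatz. Mir34a lies on the plus strand and overlaps a long noncoding RNA gene, between H6pd and Gpr157. Mir449c and Mir449a are neighbours on the plus strand and overlap another long noncoding RNA gene, near Mcidas, a regulator of multiciliated cell fate, and Gpx8. None of these 5 genes overlapped another miRNA gene. The deposited counts were made on another build, Rnor 6.0, so no coordinates are given.

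The 5p arms are shown because they carry the family's seed, which is in capitals.

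rno-miR-34a-5p: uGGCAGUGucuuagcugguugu

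rno-miR-449a-5p: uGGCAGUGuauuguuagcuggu

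rno-miR-34b-5p: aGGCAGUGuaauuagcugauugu

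rno-miR-34c-5p: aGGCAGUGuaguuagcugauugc

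rno-miR-449c-5p: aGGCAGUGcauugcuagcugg

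These 5 arms had the same bases 2 to 8, and none of the other known rows with a RefSeq sequence, 530 in all with the members, had that seed. Counted from 1 at the 5′ end, miR-34b-5p differed from miR-34c-5p at 2 of 23 positions, A11G and U23C. A read that ends before the last base tells them apart by base 11 alone. The sources used here do not give how reads that match both were counted, so the division of counts between these rows is uncertain. MiR-34a-5p and miR-449a-5p differed at 7 of 22 positions, C10A, A13G, G14U, C15U, U16A, G18C and U20G.

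The 3p arms of the miR-34b/c cluster are shown because they outnumbered the 5p arms of their own hairpins, with their seed in capitals.

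rno-miR-34b-3p: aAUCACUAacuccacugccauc

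rno-miR-34c-3p: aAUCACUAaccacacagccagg

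Both shared a seed that no other known row with a sequence had, and differed at 5 of 22 positions, U11C, C12A, U16A, U21G and C22G.  The arms lie in the hairpins as follows, with mature arms in capitals.

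Mir34b: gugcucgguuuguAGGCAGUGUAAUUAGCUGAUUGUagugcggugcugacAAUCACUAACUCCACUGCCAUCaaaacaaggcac

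Mir34c: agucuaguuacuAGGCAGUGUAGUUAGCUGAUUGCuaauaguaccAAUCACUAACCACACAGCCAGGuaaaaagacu

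The libraries held 4521694 to 6554639 miRNA counts. Of the library total implied by the deposited RPM values, they made up 31.9 ± 0.90 percent for EC against 25.8 ± 0.97 percent for EN (SD, n = 3). Levels below are CPM, counts per 1000000 miRNA counts, after scaling by TMM factors, which align libraries on the bulk of rows. In such bulk libraries, fewer cells that hold a miRNA and less of it per cell cannot be told apart. Fold changes and adjusted p-values of EN against EC come from edgeR's quasi-likelihood test over 628 rows that passed a filter on low counts, with Benjamini-Hochberg adjustment and a threshold of 0.05. Of the 10 rows, 8 were tested, and rno-miR-449a-3p and rno-miR-449c-3p were too low. Of 7 rows of chromaffin and neuroendocrine markers, miR-7a-5p alone was abundant, at 1055 ± 80.2 (EC) and 1343 ± 131 CPM (EN; SD, n = 3). MiR-182 had means of 12.6 and 13.9 CPM. The other 5 rows, miR-183-5p, miR-96-5p, miR-375-3p, miR-7a-2-3p and miR-7b, had means from 0.365 to 5.58 CPM.

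Of the 10 rows, 2 held nearly all the counts. MiR-34a-5p and miR-449a-5p together took 98.0 to 98.5 percent of the family's counts in every library. The family as a whole took 2.99, 2.98 and 2.70 percent of miRNA counts in EC and 3.07, 2.69 and 3.14 percent in EN, and the groups overlap. Of the implied library total it took 0.975, 0.961 and 0.834 percent in EC and 0.825, 0.672 and 0.801 percent in EN. Every EN library lies below every EC library there, but the closest, at 0.834 and 0.825 percent, are near each other. All miRNA counts together separated the same way, with means of 31.9 percent of that total in EC and 25.8 percent in EN. This separation is therefore not particular to the family.

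The single-gene member, rno-miR-34a-5p, was the most abundant and ranked 18 of 584 known rows by mean level. Its EC libraries held 18559, 17602 and 16513 CPM, and its EN libraries 17910, 16846 and 18887 CPM. The groups overlap, and in each group the highest library was 1.12 times the lowest. The fold of EN over EC was 1.02, with a 95 percent interval of 0.89 to 1.17 and an adjusted p of 0.870. Changes of that interval's size relative to other miRNAs could thus not be told from none.

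Next came rno-miR-449a-5p, the guide of a gene otherwise known from ciliated and testis cells, ranked 27 of 584. Its levels were 10657, 11149 and 10083 CPM for EC, against 12167, 10411 and 11911 CPM for EN. EN replicates 1 and 3 lay above all EC libraries and EN replicate 2 among them. The fold was 1.08, with an interval of 0.93 to 1.26 and an adjusted p of 0.560. Its counts were 0.574 to 0.633 of those of miR-34a-5p in EC and 0.618 to 0.679 in EN, a ratio looked at after its level was seen. Its cluster neighbour rno-miR-449c-5p, of the same seed, had only 28 to 61 counts per library, or 9.42, 5.91 and 8.86 CPM (EC) and 9.62, 6.40 and 11.6 CPM (EN). The groups overlap, with a fold of 1.14, an interval of 0.70 to 1.86 and an adjusted p of 0.748. The 5p counts of these neighbouring genes differed by 1026 to 1888 times within a library.

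In the miR-34b/c cluster the 3p arms were the more abundant. Levels of rno-miR-34b-3p were 263, 307 and 231 CPM for EC and 276, 319 and 295 CPM for EN. The groups overlap, and EC replicate 3 was the lowest library. Its fold was 1.11, with an interval of 0.87 to 1.41 and an adjusted p of 0.621.

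The row rno-miR-34c-3p held 87.7, 125.8 and 66.3 CPM in its EC libraries, and 97.3, 159 and 167 CPM in its EN libraries. Its highest library was 1.90 times the lowest in EC, the widest spread of the tested members there, and 1.72 times in EN, where only miR-449c-5p spread wider, at 1.81 times. EC replicate 2 lay above EN replicate 1, so the groups overlap. The fold was 1.51, with an interval of 0.93 to 2.46 and an adjusted p of 0.293.

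The 5p arms of the cluster had the opposite sign. The row rno-miR-34b-5p had 15.7, 19.8 and 16.3 CPM (EC) and 10.5, 10.3 and 9.86 CPM (EN), from at least 102 counts per EC library and 45 to 57 per EN library. All 3 EN libraries lay below all 3 EC libraries. The EN libraries differed by 1.07 times, but at such low counts this narrow spread is no measure of precision. The fold was 0.592, with an interval of 0.44 to 0.80, and the adjusted p of 0.0618 missed the threshold.

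For rno-miR-34c-5p the EC values were 75.2, 70.2 and 61.7 CPM and the EN values 49.8, 42.1 and 56.1 CPM, with 184 to 487 counts per library. The groups again do not overlap. The fold was 0.714, with an interval of 0.54 to 0.94 and an adjusted p of 0.141. With both 5p rows summed, the division of reads between them no longer matters, though reads dropped or counted in both rows still would. The summed counts were 589, 564 and 511 in EC and 326, 229 and 301 in EN. The log2 fold change of the sum was -0.54 (SE 0.16) with an adjusted p of 0.0923.

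**Figure D1:**
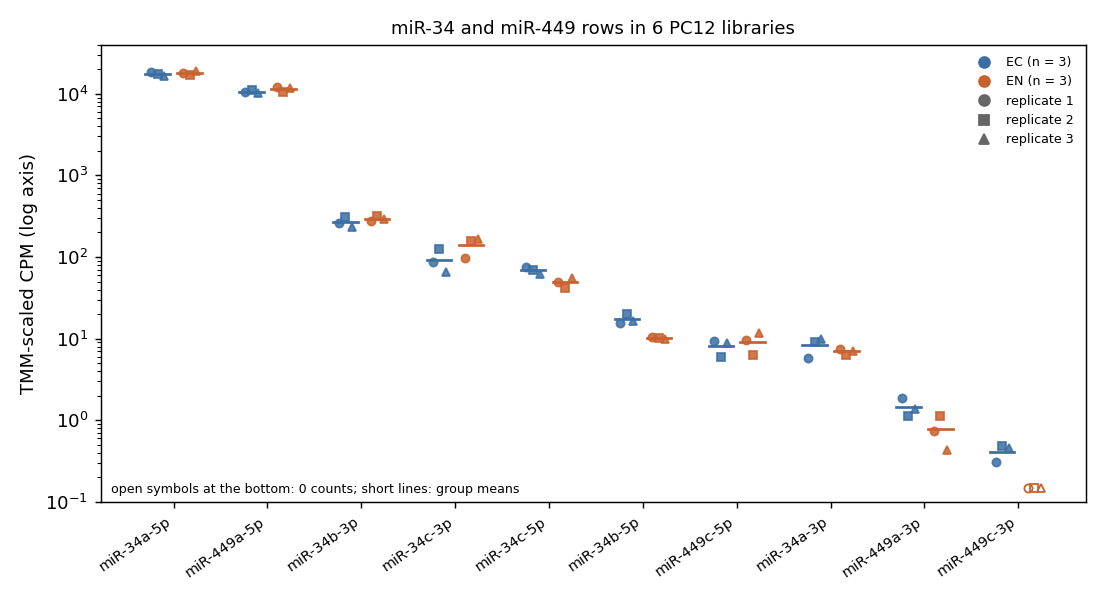
Level of each of the 10 rows in the 6 libraries, in TMM-scaled CPM on a log axis, ordered by mean. Points are libraries, short lines are group means and open symbols mark 0 counts. MiR-34a-5p and miR-449a-5p stand at 10083 CPM or more in every library, and the EN points of miR-34b-5p and miR-34c-5p lie below all their EC points.

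By edgeR 0 of the 8 tested members passed the threshold, where 3.98 percent of all tested rows did and 1.91 percent did so as lower in EN. At an unadjusted p under 0.05 there were 2, miR-34b-5p and miR-34c-5p, against 21.7 percent of all rows. DESeq2 and limma-voom each called 0 members, against 11.3 and 2.55 percent of rows. Members whose groups did not overlap were 2 of 8 lower, against 14.6 percent of all rows, and 0 of 8 higher, against 15 percent. Of the 8 members, 3 had a negative log2 fold change, against 309 of 628 rows. The median of the members was 0.07 and that of all tested rows 0.02.

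The 3 least abundant rows were the 3p arms of miR-34a, miR-449a and miR-449c. The row rno-miR-34a-3p had 38, 57 and 65 counts in EC and 41, 28 and 32 in EN. On the scaled level this was 5.87, 9.10 and 9.92 CPM against 7.58, 6.40 and 7.01 CPM, with overlap, a fold of 0.845, an interval of 0.55 to 1.29 and an adjusted p of 0.649. MiR-449a-3p had 12, 7 and 9 counts in EC and 4, 5 and 2 in EN. MiR-449c-3p had 2, 3 and 3 counts in EC and 0 in each EN library, where 3 counts, the limit that a count of 0 allows, correspond to 0.555 to 0.686 CPM. Its EC levels of 0.309 to 0.479 CPM lie under that limit, which holds for single libraries. A difference between the groups was not tested for this row. Such limits and the intervals of shares below cover counting error only.

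The rows have sequences of 21 to 23 bases, except miR-449c-3p with 17, and CPM are set side by side with no division by length. Whether different sequences were captured equally well was not tested, so the order is one of counts. Ordered by mean over all libraries, the rows were miR-34a-5p, miR-449a-5p, miR-34b-3p, miR-34c-3p, miR-34c-5p, miR-34b-5p, miR-449c-5p, miR-34a-3p, miR-449a-3p and miR-449c-3p. The ranges of these neighbours overlapped over all 6 libraries for miR-34c-3p and miR-34c-5p, for miR-34b-5p and miR-449c-5p, for miR-449c-5p and miR-34a-3p, and for miR-449a-3p and miR-449c-3p. Between the others no value overlapped.

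**Figure D2:**
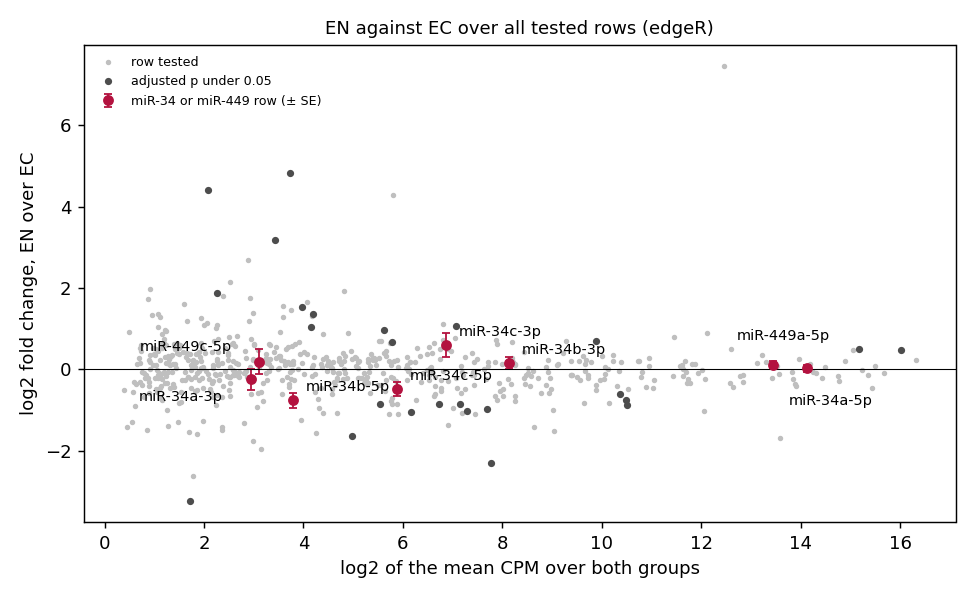
Log2 fold change of EN over EC (vertical axis) against the log2 of mean CPM (horizontal axis) for the 628 tested rows, with dark points for rows past the adjusted p threshold and red points with SE bars for the 8 tested members. The 5p arms of miR-34b and miR-34c lie below 0 and their 3p arms above, and no red point is a row past the threshold.

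The comparison of both arms of a hairpin needs no library scaling, since both are counted in the same library. The log2 ratio of 5p to 3p counts of miR-34b fell from -3.93 ± 0.12 in EC to -4.83 ± 0.13 in EN (SD, n = 3). That of miR-34c was -0.39 ± 0.40 in EC and -1.48 ± 0.48 in EN, and that of miR-34a 11.1 ± 0.48 and 11.3 ± 0.10.

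For miR-34b the 5p arm made up 5.65, 6.05 and 6.61 percent of both arms in the EC libraries and 3.68, 3.13 and 3.24 percent in the EN libraries. The exact (Clopper-Pearson) 95 percent intervals of single libraries reach down to 4.63 percent in EC and up to 4.75 percent in EN. The groups do not overlap, but the intervals of EC replicate 1 and EN replicate 1 do. By limma's test over all miRNAs whose arms both averaged at least 20 counts, the difference was -0.89 (SE 0.17, interval -1.30 to -0.49) with an adjusted p of 0.0320. Of all pairs tested, 5.61 percent passed. The call was lost in 5 of the 6 fits without 1 library, with adjusted p from 0.0899 to 0.166, and held only without EC replicate 2, with 0.0345. It was also lost with a replicate block (adjusted p 0.106) and with a minimum mean of 5 counts (0.0734).

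For miR-34c the 5p arm made up 46.2, 35.8 and 48.2 percent of both arms in EC and 33.8, 20.9 and 25.1 percent in EN. All EN libraries lay below all EC libraries, but EC replicate 2 and EN replicate 1 lay close, and their exact intervals, 33.1 to 38.6 and 30.5 to 37.2 percent, overlap. The difference was -1.10 (SE 0.32, interval -1.87 to -0.33), with more spread than miR-34b, and its adjusted p of 0.122 missed the threshold. Without EC replicate 2, the EC library lowest in this ratio, the difference was -1.32 with an adjusted p of 0.0422. Leaving out that library also raised the arm use calls over all pairs from 6 to 14. In every other fit without 1 library miR-34c missed the threshold, with adjusted p from 0.0993 to 0.3535. The groups did not overlap for 2 of the 3 family pairs tested, where 29.9 percent of all pairs showed no overlap in either direction. A test of whether the arm shift of either cluster gene differs from that of miR-34a was not run.

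For miR-34a the 5p arm made up 99.94 to 99.97 percent of both arms in every library. The difference in log2 ratio was 0.22 (SE 0.27, interval -0.42 to 0.87) with an adjusted p of 0.667, and the groups overlap. MiR-449a had too few 3p counts for this test. Its 5p arm made up at least 99.98 percent of both arms in all libraries. MiR-449c-5p made up 96.8, 92.5 and 95.1 percent of its pair in EC and had no 3p partner counted in EN. The RefSeq sequence of that 3p row has only 17 bases and starts shortly after the 5p arm in the hairpin. These counts therefore do not show which arm of miR-449c is the major one. Of all pairs tested, 98.1 percent had a lower mean ratio than miR-34a, 28.0 percent a lower one than miR-34c and 12.1 percent a lower one than miR-34b. By their counts the seed-sharing 5p arm was the major arm of miR-34a and miR-449a and the minor arm of miR-34b and miR-34c in every library. For miR-34c the arms were near equal in EC replicate 3, with 404 5p and 434 3p counts. The exact 95 percent interval of its 5p share there, 44.8 to 51.7 percent, includes equal arms. The uncertain division of reads between miR-34b-5p and miR-34c-5p also bears on this order.

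**Figure D3:**
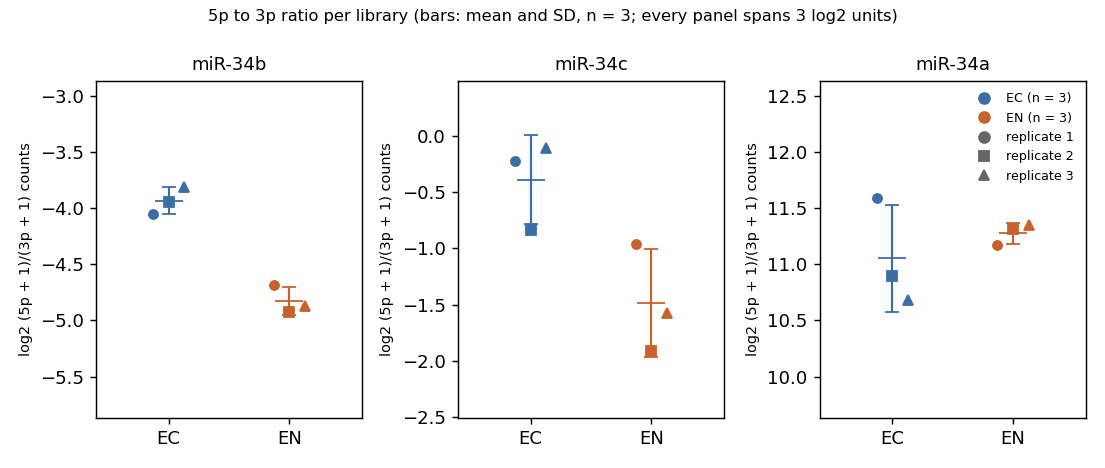
Log2 ratio of 5p to 3p counts (vertical axis, 1 added to each count) for miR-34b, miR-34c and miR-34a, with a point for each library and the mean and SD of each group. Every panel spans 3 log2 units. The EN points lie below the EC points for miR-34b and miR-34c, and within the EC range for miR-34a.

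Ratios between rows set the miR-34b/c cluster against miR-34a without library scaling. The log2 ratio of miR-34b-5p to miR-34a-5p was -10.19, -9.78 and -9.97 in EC and -10.71, -10.65 and -10.87 in EN, a difference of -0.76. That of miR-34c-5p to miR-34a-5p was -7.94, -7.97 and -8.06 in EC and -8.49, -8.64 and -8.39 in EN, a difference of -0.51. In both, every EN library lay below every EC library. The two-sided exact permutation p was 0.1 in both, the smallest that 3 against 3 libraries allow, and 0.25 after Benjamini-Hochberg adjustment over the 5 ratios compared.

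Within the cluster, the libraries of both groups overlapped in each of the 3 other ratios. The log2 ratio of miR-34b-5p to miR-34c-5p was -1.99 ± 0.22 in EC and -2.24 ± 0.24 in EN, with an exact permutation p of 0.3. That of miR-34b-3p to miR-34c-3p was 1.56 ± 0.26 and 1.11 ± 0.35, with an exact permutation p of 0.2. The 5p to 3p ratio of miR-34b relative to that of miR-34c, on the log2 scale, was -3.55 ± 0.39 and -3.34 ± 0.36, with an exact permutation p of 0.6. After adjustment these 3 were 0.375, 0.333 and 0.6. The EN minus EC difference of that last ratio was 0.20, with libraries of both groups interleaved.

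The scale of all levels depends on the divisor. When library totals implied by RPM replaced the miRNA counts, the median log2 fold change over all rows went from 0.02 to -0.30. Values of miR-34a-5p, miR-34b-3p, miR-449a-5p and miR-449c-5p then turned negative, at -0.30, -0.19, -0.21 and -0.13, and none of these passed. On that scale miR-34b-5p at -1.09 (adjusted p 0.0138) and miR-34c-5p at -0.81 (adjusted p 0.0289) passed edgeR's test as lower, as 14.2 percent of rows did. MiR-34c-3p stayed positive at 0.25. The sources used here do not say which reads the implied total holds.

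**Figure D4:**
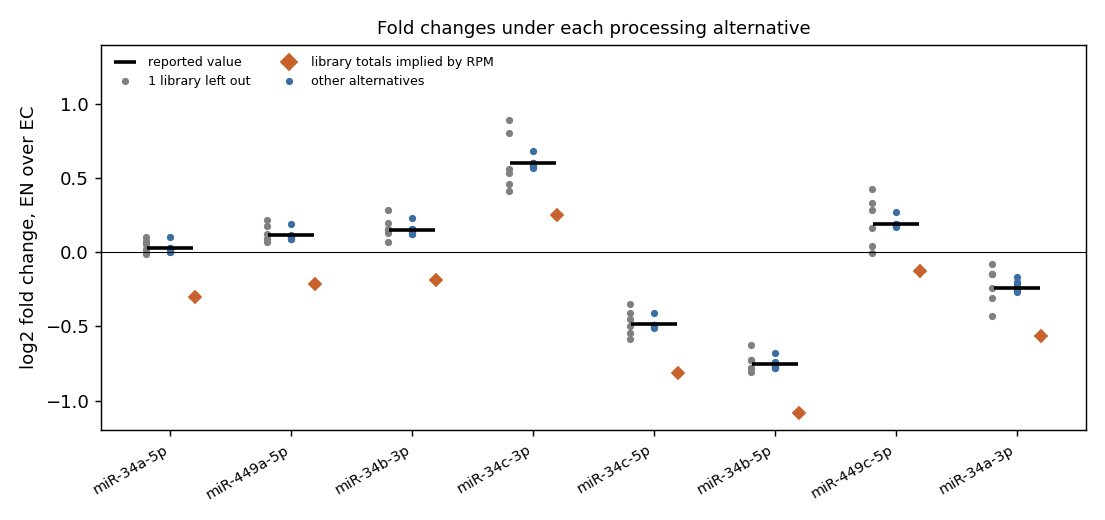
Log2 fold change of EN over EC (vertical axis) of the 8 tested members under each alternative. Black bars are reported values, grey points leave out 1 library, blue points are other alternatives and orange diamonds use library totals implied by RPM. The 5p arms of miR-34b and miR-34c lie below 0 and miR-34c-3p above 0 throughout, while miR-34a-5p moves from 0.03 to -0.30 with the implied totals.

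Other miRNAs that p53 is known to induce or process came to 17 rows. Of these 11 were tested, 0 passed by edgeR, DESeq2 or limma-voom, 2 had an unadjusted p under 0.05, and 7 had a negative value, with a median of -0.30. Of all tested rows 309 of 628 were negative, with a median of 0.02, and 3.98 percent passed by edgeR, 11.3 percent by DESeq2, 2.55 percent by limma-voom and 21.7 percent at an unadjusted p under 0.05. MiR-16-5p, which restrains cyclins, had 17298 ± 2728 (EC) and 13082 ± 1553 CPM (EN; SD, n = 3), with an adjusted p of 0.146. MiR-192-5p, a p53 target in epithelia, stood at 140 ± 16.5 and 148 ± 44.0 CPM, with an adjusted p of 0.869. MiR-15a-5p, which shares the seed of miR-16-5p, stood at 38.8 ± 4.73 and 47.3 ± 7.47 CPM, with an adjusted p of 0.412.

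Arms of miRNAs known to repress p53 itself came to 7 tested rows. Both arms of each hairpin were taken, also the less abundant ones, so the list is wider than the repressing guides. By edgeR 0 passed, with 3 at an unadjusted p under 0.05. DESeq2 called 1 and limma-voom 0, 5 were negative and the median was -0.28. The shares of all rows are those just given. MiR-30d-5p had 2422 ± 913 (EC) and 1760 ± 207 CPM (EN), with an adjusted p of 0.412. MiR-125b-1-3p, an arm opposite miR-125b-5p, had 1112 ± 127.8 and 782 ± 110 CPM, with an adjusted p of 0.0924. MiR-125b-5p ran from 69.3 to 21875 CPM over the 6 libraries, and its groups overlap, with an adjusted p of 0.957.

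The rows most like each 5p member were found by Pearson's r of log2 CPM over the 6 libraries, among 269 other known rows of 10 CPM or more. These r are the highest of many and partly follow the groups, so they describe these libraries only. For miR-34b-5p they were let-7d-3p (0.952), miR-28-5p (0.951) and miR-151-5p (0.939), all with negative log2 fold changes, of which miR-28-5p at -0.60 passed edgeR's test with an adjusted p of 0.0228. For miR-34c-5p they were miR-92a-1-5p (0.975), miR-3065-5p (0.970) and miR-17-5p (0.970), at -0.44, -0.72 and -0.58, none of which passed. For miR-449a-5p they were miR-122-5p (0.984), miR-221-3p (0.882) and miR-219a-1-3p (0.850), all positive and none past the threshold. For miR-34a-5p they were miR-125b-5p (0.885), let-7a-2-3p (0.883) and miR-93-5p (0.853), and for miR-449c-5p let-7c-2-3p (0.930), miR-93-5p (0.891) and miR-126a-3p (0.801). Of these, miR-125b-5p and let-7c-2-3p, the latter at 0.319 to 390 CPM, differ widely between libraries of one group.

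Markers of other cells moved with the groups in part. The summed level of 7 blood cell rows was 94.5 to 127.7 CPM in EC and 157 to 178 CPM in EN, most of it miR-150-5p, of lymphocytes, at 99.2 and 141.2 CPM (adjusted p 0.151). MiR-451-5p, of red cell precursors, passed the threshold at 1.52 (8.10 and 23.3 CPM, adjusted p 0.0471). The other 5 rows were under 2 CPM on average, with miR-142-3p at 1.602 and 1.111 CPM and miR-142-5p at 0.825 and 0.225 CPM. Endothelial rows summed to 1064 to 1144 and 1086 to 1228 CPM, nearly all of it miR-126a-3p at 1048 and 1102 CPM (log2 fold change 0.07, adjusted p 0.731). MiR-126a-5p was lower at -0.86 (60.3 and 33.2 CPM, adjusted p 0.0471), and miR-126b was near 0. Rows typical of neurons summed to 2390 to 2790 and 2566 to 2838 CPM, with miR-128-3p higher at 0.69 (adjusted p 0.0177). MiR-9a-5p, the most abundant of them, was at -0.40 (adjusted p 0.176) and miR-9a-3p at -0.48 (adjusted p 0.125), while miR-124-3p stayed under 1 CPM on average and miR-137-3p was at 0 in EC. The part of these cells or RNAs in the miR-34 values was not tested.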

How the data were processed

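Small RNA of 6 PC12 libraries was measured, 3 labelled EC and 3 EN. The authors deposited whole-number read counts per mature miRNA, and RPM values that equal the count over 1 total per library within 0.0015 in 99.99 percent of values; the deposited group means of RPM and of counts (the latter entered under the unit score, as means need not be whole) were not used. Per the submitters' processing notes, HISAT2 2.0.5 and Rnor 6.0 were used; the counting program and its rules on strand and shared reads were not among those notes. Per the labels' protocols, RNA came from Trizol and libraries from a TruSeq RNA kit.

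Counts were tested in edgeR 4.0.16 (R 4.3.3; filterByExpr, TMM, robust quasi-likelihood), arm ratios (1 added to each count) in limma 3.58.1, ratios between rows by two-sided exact permutation. Standard errors are the fold change over the root of F, and intervals use edgeR's degrees of freedom. The members and lists, and the naming rule (all members, rows sharing a seed with one, up to 3 rows a list by call and then abundance, and the 3 most correlated rows of each 5p arm), were chosen with earlier results of these data known. Further low rows and opposite movers of the cell marker lists are named beyond it, after their values were seen. Scripts were tested on simulated data. Python 3.11.15 and matplotlib 3.10.9 drew the figures. Counts of replicates of a group were not copies of each other, with a chi-square per degree of freedom of 182 or more. It cannot tell whether they share a culture or RNA, since it pools all rows, some of which differ widely between libraries of a group. Alternatives were other factors, divisors, filters, pseudocounts and tools (DESeq2 1.42.0, limma-voom), a replicate block, summed 5p rows and each library left out.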

Additional observations from a re-analysis of the deposited data

How the results depend on the processing

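Depth limits the rows of few counts, such as miR-34b-5p, miR-34a-3p and miR-449c-5p. The 25 rows past the threshold, 13 higher and 12 lower, became 101 with library totals implied by RPM, 13 higher and 88 lower, 44 without a filter, 70 with DESeq2, 16 with limma-voom, and 2 to 39 without 1 library. None of the 8 tested members passed without 1 library. Outside the implied totals, the 1 member call gained was miR-34b-5p at -0.77 (adjusted p 0.0423) with a mean of 10 CPM or more, where fewer rows are tested. Its adjusted p was 0.0516 by DESeq2 and 0.0745 by limma-voom, and 0.0138 to 0.190 over all alternatives. Sign changes met members that did not pass. With implied totals these were miR-34a-5p at -0.304, miR-34b-3p at -0.187, miR-449a-5p at -0.214 and miR-449c-5p at -0.126. Without a filter miR-34a-5p was at -0.00093, and without 1 library it ranged from -0.0141 to 0.101, and miR-449c-5p from -0.0040 to 0.428.

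Arm use calls, 6 in all, ranged from 1 to 14 without 1 library. The miR-34b difference ranged from -0.963 to -0.830 and that of miR-34c from -1.36 to -0.88, at -1.32 without EC replicate 2. With a mean of 5 counts miR-34b stayed at -0.892 but its adjusted p was 0.0734, with more pairs tested. The 5 ratios between rows kept their sign in all alternatives. The family share of miRNA counts differed by 0.080 percentage points, and by -0.157 of the implied total.

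In the fit with a replicate block by label number, 2 rows passed, no member among them, and miR-34b-5p had -0.75 with an adjusted p of 0.187. In arm use miR-34b stayed at -0.892 and no longer passed (adjusted p 0.106). The numbers were not taken as pairs, since the labels do not say what a shared number means. The deviations from group means of same-numbered libraries had r of 0.091, -0.036 and 0.018, which cannot settle whether they are pairs. The causes of these differences between alternatives were not tested.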
